A study of Mus musculus with 4 samples.

Results

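The genes described here are 31 interferon-stimulated genes, chosen by symbol from the common set that type I interferon induces, among the 30408 genes that all 4 deposited count matrices list. All 31 were present in every matrix. The matrices hold unique molecular identifier (UMI) counts per gene and cell from MB49 tumours, which grow from a mouse bladder carcinoma cell line of a male mouse. The tumours were grown in male or female mice and digested with enzymes, and cells were sorted on CD45, the surface protein of blood-derived cells. The groups were male CD45-positive, female CD45-positive, male CD45-negative and female CD45-negative cells, with 1 library each. The labels give no treatment or genetic change for any group, and no mouse strain, age or number of animals pooled. With 1 library per group no test between sexes was possible. Intervals below are 95% and cover counting error only.

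Type I interferons signal through the receptor IFNAR1-IFNAR2, the kinases JAK1 and TYK2, and a complex containing STAT2 and IRF9 that binds the interferon-stimulated response element in promoters. The induced proteins sense foreign nucleic acid, block steps of viral growth or tune the response itself. Several of the genes also respond to interferon gamma or to other signals, so a single gene does not report one ligand.

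The 4 libraries held 22115 barcodes, of which 19375 cells passed minimums of 500 UMIs and 250 genes and a ceiling of 25% mitochondrial UMIs. Median depth of kept cells was between 5980 and 10598 UMIs per library. A marker gate assigned 16661 cells to a class, and 1049 of these lay near the gate's edge. The sort labels could be checked on Ptprc, which encodes CD45 and was at 648 and 742 CPM in the CD45-positive and at most 1.79 CPM in the CD45-negative libraries. Krt8 and Krt18, keratins of simple epithelium, were between 596 and 2009 CPM in the CD45-negative libraries, whereas Epcam and the urothelial keratins Krt5 and Krt7 were at or below 0.275 CPM there. Barcodes were running numbers and not sequences, so barcodes shared between libraries could not be counted.

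The response element offers a view of these genes at the level of DNA. Of the 31 genes, 22 had a promoter window in RefSeq (build GRCm38.p6, 250 bases before to 50 bases after the gene's start). The motif searched was GAAA, any 2 bases and GAAA again, on both strands (TTTC, any 2 bases, TTTC on the other); matches may overlap. It was found in 13 of the 22 (59.1%), in 24 of 51 further interferon-stimulated genes (47.1%), and in 3.44% of all 32851 windows. A match is a run of letters and not a shown binding site. The 250 bases before the start are printed, with matches in capitals, for 6 genes named below, all of which hold a match. They are Isg15 at chr4:156200819-156201068, minus strand, Ifit1 at chr19:34640639-34640888, plus strand, Ifit3 at chr19:34583279-34583528, plus strand, Ifit3b at chr19:34607707-34607956, plus strand, Bst2 at chr8:71537473-71537722, minus strand, and Rsad2 at chr12:26456453-26456702, minus strand, each written 5′ to 3′ on the gene's strand.
Isg15: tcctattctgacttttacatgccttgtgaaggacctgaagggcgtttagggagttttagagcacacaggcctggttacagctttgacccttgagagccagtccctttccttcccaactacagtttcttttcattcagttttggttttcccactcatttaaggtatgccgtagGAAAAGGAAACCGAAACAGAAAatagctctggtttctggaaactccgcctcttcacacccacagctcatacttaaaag
Ifit1: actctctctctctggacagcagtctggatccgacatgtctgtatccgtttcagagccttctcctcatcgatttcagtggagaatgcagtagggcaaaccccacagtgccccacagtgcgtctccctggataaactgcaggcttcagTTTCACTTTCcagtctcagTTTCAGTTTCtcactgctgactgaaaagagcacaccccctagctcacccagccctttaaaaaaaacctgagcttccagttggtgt
Ifit3: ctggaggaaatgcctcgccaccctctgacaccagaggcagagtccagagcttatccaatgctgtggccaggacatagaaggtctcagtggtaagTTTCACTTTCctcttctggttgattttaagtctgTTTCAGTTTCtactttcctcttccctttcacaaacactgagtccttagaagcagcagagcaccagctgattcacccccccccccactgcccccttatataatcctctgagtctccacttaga
Ifit3b: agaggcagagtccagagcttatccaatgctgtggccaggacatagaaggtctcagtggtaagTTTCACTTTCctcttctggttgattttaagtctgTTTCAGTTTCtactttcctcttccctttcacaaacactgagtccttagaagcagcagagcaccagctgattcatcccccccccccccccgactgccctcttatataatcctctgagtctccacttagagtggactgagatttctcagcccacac
Bst2: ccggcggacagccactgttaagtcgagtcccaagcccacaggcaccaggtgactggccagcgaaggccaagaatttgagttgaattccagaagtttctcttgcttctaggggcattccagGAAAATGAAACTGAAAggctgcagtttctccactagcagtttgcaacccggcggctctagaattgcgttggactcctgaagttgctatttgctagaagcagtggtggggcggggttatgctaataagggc
Rsad2: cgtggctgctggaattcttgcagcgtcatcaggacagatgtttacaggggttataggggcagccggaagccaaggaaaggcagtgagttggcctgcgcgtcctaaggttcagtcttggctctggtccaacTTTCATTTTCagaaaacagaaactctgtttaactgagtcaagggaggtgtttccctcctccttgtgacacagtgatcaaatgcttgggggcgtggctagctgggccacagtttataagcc

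Isg15 held 3 overlapping matches, the first of which began 78 bases before the start. Ifit1, Ifit3 and Ifit3b each held 2 matches in the other orientation. The windows of Ifit3 and Ifit3b shared an unbroken run of 169 bases that contains both matches. These neighbours on chromosome 19 are near-identical copies, so the split of reads between them is uncertain. The same holds for Oas1a and its copies, Trim30a and its family, and Ifi27l2a. In Ifitm3 both matches lay after the start, within the first 50 transcribed bases, and are not printed. Among the Oas genes, Oas3 held 1 match and Oas1a 2. The windows of Oasl1, Oasl2, Irf7, Ifit2 and Cmpk2 held no match and are not printed. Each of these genes also differed by 1.5-fold or more between libraries in some class below. Of the 31 genes, 4 lie on chromosome 19 (the Ifit genes) and 5 on chromosome 5 (the Oas genes), and Mx2 is annotated as a polymorphic pseudogene in GENCODE M21.

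Levels are CPM of the UMIs summed over the cells of a class. Carcinoma, fibroblast and endothelial cells came from the CD45-negative libraries and all other classes from the CD45-positive ones. Between these groups, cell class cannot be told apart from sort and library. The summed level of the 31 genes differed between cell classes. It was 4562 CPM in male and 4557 CPM in female cells for carcinoma cells, 4048 and 6157 CPM for neutrophils, 2274.5 and 2825 CPM for macrophages, and 1688 and 1873 CPM for T cells. NK cells had the lowest sums among the 10 classes, at 861 and 1083 CPM. Endothelial cells were at 5763 and 6290 CPM, from only 11 and 15 cells. A sum over unlike genes is carried by its most abundant member, and UMI counts are not divided by gene length.

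**Figure D1:**
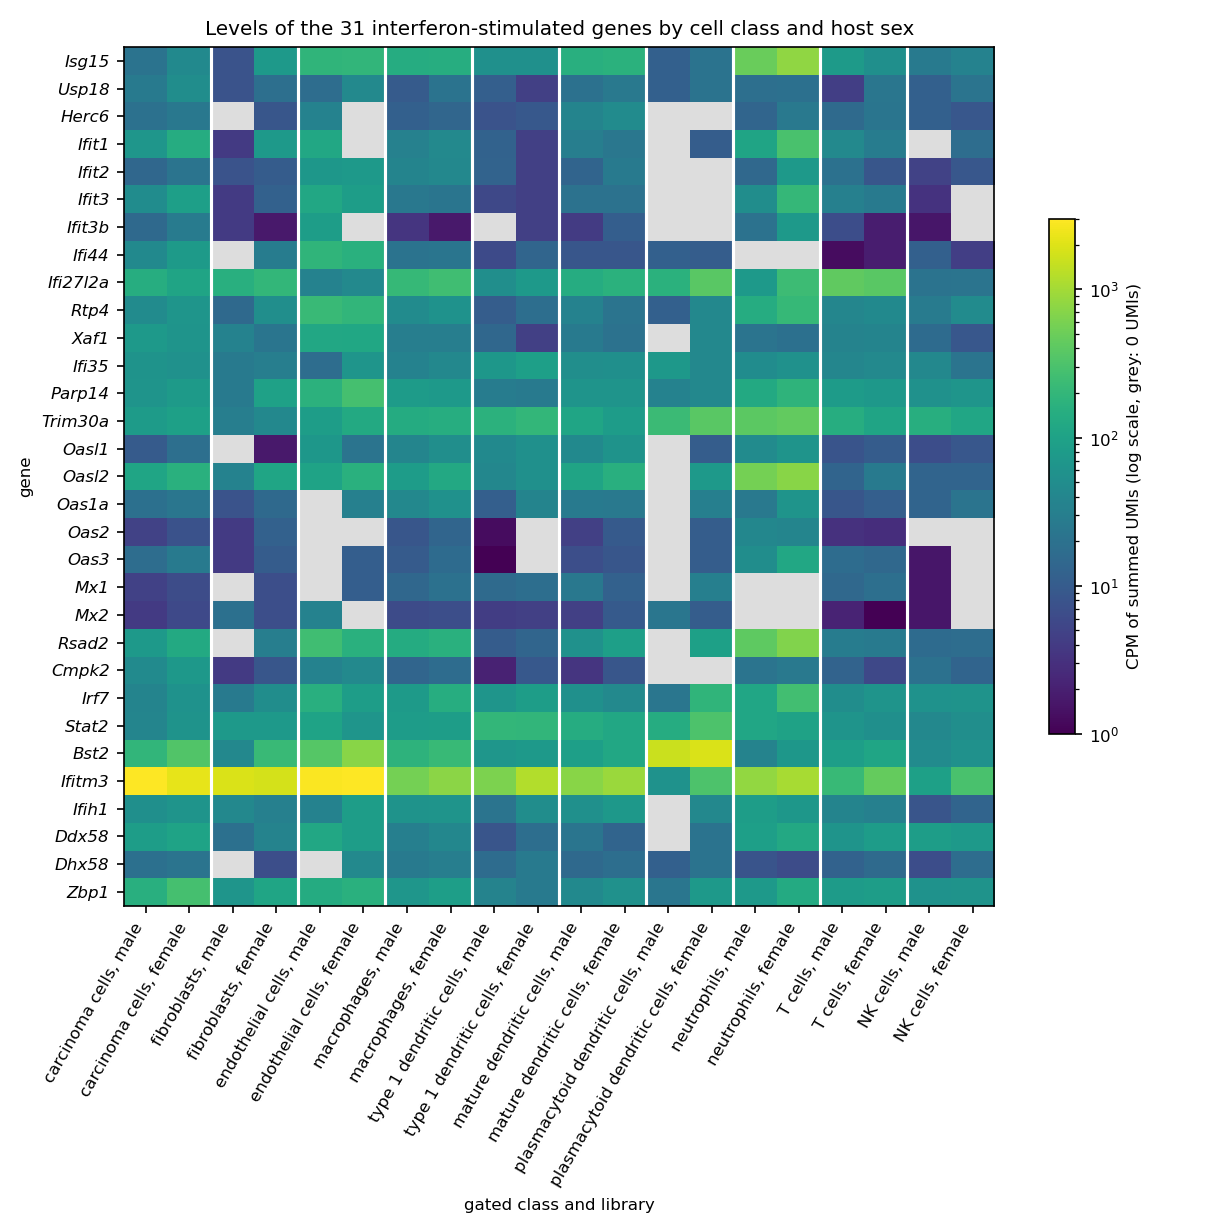
CPM of summed UMIs for each of the 31 genes (rows, ordered by role) in 10 gated classes, with the male and the female library side by side (columns), on a log colour scale with grey for 0 UMIs. Ifitm3 was the brightest row in both libraries of every class except T, NK and plasmacytoid dendritic cells. Bst2 was the brightest in plasmacytoid dendritic cells. In T and NK cells Ifitm3 was the brightest in the female library, and Ifi27l2a (T) and Trim30a (NK) in the male library.

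Ifitm3, a membrane protein that blocks fusion of entering viruses, held 49% of all UMIs of the 31 genes in kept cells. In carcinoma cells it reached 2947 CPM in male and 2219 CPM in female cells, or 64.6% and 48.7% of the sum. Bst2, which tethers budding virus to the cell surface, was the leading gene of plasmacytoid dendritic cells at 1600 CPM (1343 to 1893) in 21 male and 1885 CPM (1618 to 2183) in 27 female cells. Plasmacytoid dendritic cells are the blood-derived cells best known for making type I interferon, and Bst2 is used as a marker of them in mice. Trim30a led in male NK cells at 149 CPM, where Ifitm3 was at 93.5 CPM. Ifi27l2a, an interferon-inducible gene of the Ifi27 family, was high in T cells at 421 and 386 CPM. In neutrophils Oasl2, Isg15 and Rsad2 each stood between 410 and 793 CPM, levels that no other class of at least 50 cells per library reached for these genes.

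Single genes differed in level between macrophages and carcinoma cells, which came from different sorts and libraries, so cell class and library cannot be told apart here. Isg15, the ubiquitin-like modifier, was at 141.5 and 149 CPM in macrophages but at 20.9 and 44.5 CPM in carcinoma cells. Ifit1, which binds RNA that lacks the host's cap methylation, was at 34.2 and 43.8 CPM in macrophages and at 66.8 and 143 CPM in carcinoma cells. Zbp1, a sensor of Z-form nucleic acid, was at 67.6 and 88 CPM in macrophages and at 156 and 287 CPM in carcinoma cells. In neutrophils Ifi44, Mx1 and Mx2 had 0 UMIs in both libraries, which allows up to 4.03 CPM in male and 19.0 CPM in female cells at 3 counts.

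The question the design poses is how tumours differ between male and female hosts. In carcinoma cells, 16 of the 31 genes were higher by 1.5-fold or more in the female library and 0 in the male library. Among all 12857 genes with at least 100 UMIs in the pair of libraries, 6.81% were higher by 1.5-fold or more in the female and 7.05% in the male library. Of the 31 genes, 27 had the higher level in the female library. Their median male:female ratio was -0.59 on the log2 scale, beside 0.01 for all genes. The classes held 4523 male and 3453 female carcinoma cells, with median depths of 11346 and 11265 UMIs. With graph clusters weighted alike, 1 gene passed on the female and 0 on the male side, beside 11.5% and 12.3% of 16266 genes.

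The carcinoma genes with the largest female:male ratios were Ifit1, Isg15 and Oasl1. Ifit1 was at 66.8 CPM in male and 143 CPM in female cells, 2.13-fold (2.05 to 2.22). Isg15 was at 20.9 and 44.5 CPM, 2.13-fold (1.98 to 2.29). Oasl1, an inhibitor of Irf7 translation, was at 9.99 and 18.9 CPM, 1.89-fold (1.69 to 2.11). All 4 Ifit genes passed the fold, from 1.5-fold for Ifit2 to 2.13-fold for Ifit1. Usp18, the protease that removes Isg15 from its targets and dampens receptor signalling, was at 27.0 and 49.9 CPM. Bst2 was at 197 CPM in male and 340 CPM in female cells, 1.73-fold (1.68 to 1.77). Zbp1 was 1.84-fold (1.79 to 1.89) higher in the female library, and Rsad2, whose product viperin makes a chain-terminating nucleotide, was at 76.8 and 129 CPM. The transcription factors Irf7 and Stat2 were at 36.7 and 59.5 CPM and at 38.4 and 61.1 CPM.

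Carcinoma genes within 1.5-fold included the RNA sensors. Ddx58, which encodes RIG-I, was at 86.6 and 104 CPM, Ifih1, which encodes MDA5, at 53.5 and 62.2 CPM, and Dhx58 at 19.4 and 21.9 CPM. Oasl2 was at 112 and 163 CPM, Parp14 at 62.6 and 79 CPM, and Trim30a at 80.2 and 94.6 CPM. A group of 4 genes had the higher level in the male library. Ifi27l2a was at 148 CPM in male and 109 CPM in female cells, 1.36-fold (1.31 to 1.41), and Ifitm3 was 1.33-fold (1.32 to 1.34) higher in the male library. Xaf1 and Ifi35 were above their female levels by 1.15-fold and 1.06-fold. With Ifitm3 left out, the other 30 genes summed to 1615 CPM (1605 to 1625) in male and 2339 CPM (2324 to 2354) in female cells.

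**Figure D2:**
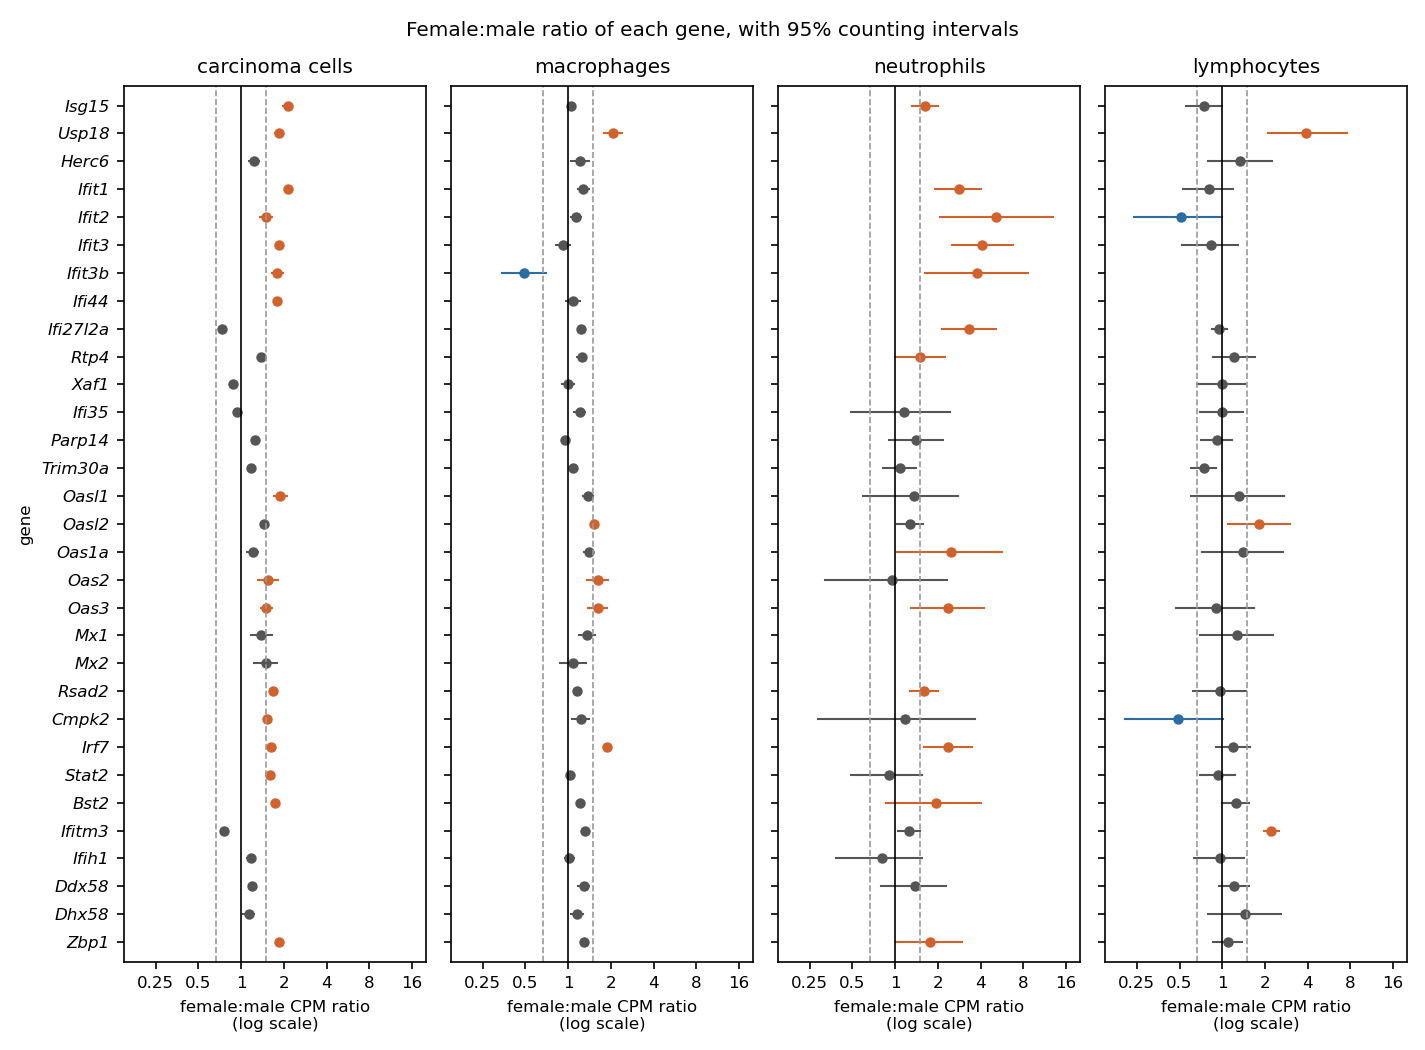
Female:male ratio of CPM (log scale) for each gene with at least 20 UMIs in the pair of libraries, in 4 classes, with 95% counting intervals. Orange marks higher by 1.5-fold or more in the female library, blue in the male library, grey neither, and dashed lines mark 1.5-fold. Orange points fill much of the carcinoma and neutrophil panels.

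Macrophages showed the same side with smaller ratios. Of the 31 genes, 5 were higher by 1.5-fold or more in the female and 1 in the male library, beside 6.06% and 6.84% of all 11433 genes. Again 27 of 31 had the higher level in the female library, with a median of -0.28 on the log2 scale, beside -0.01 for all genes. The 2529 male and 3214 female cells had median depths of 10330 and 7815.5 UMIs. With graph clusters weighted alike, 1 gene passed on the female and 5 on the male side, beside 12.7% and 9.63% of 14702 genes. Usp18 was at 10.1 CPM in male and 20.8 CPM in female cells, 2.06-fold (1.79 to 2.39). Irf7, the factor that amplifies interferon alpha genes, was at 78.2 and 147 CPM, 1.88-fold (1.78 to 1.98). Oas3, a synthetase of the 2-5A messenger that activates RNase L, was at 10.1 and 16.3 CPM, and Oas2 and Oasl2 also passed the fold. Ifit3b was at 3.49 CPM in male and 1.71 CPM in female cells, 2.03-fold higher in the male (1.43 to 2.92), while its copy Ifit3 was at 24.7 and 22.7 CPM. Rsad2 was at 137 and 159 CPM, Bst2 at 179 and 217 CPM, Ifi27l2a at 212 and 260 CPM, and Ifitm3 at 568 and 752 CPM.

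In neutrophils 24 of the 31 genes had at least 20 UMIs. Of these, 13 were higher by 1.5-fold or more in the female and 0 in the male library, beside 18.9% and 16.1% of all 4090 genes at that depth. These counts come from 562 male and 130 female cells with median depths of 1236.5 and 1157.5 UMIs. With at least 100 UMIs the count was 5 of 10 genes, beside 9.95% of 1276 genes, and 0 genes were higher in the male library, beside 6.11%. Isg15 was at 488 CPM in male and 793 CPM in female cells, 1.63-fold (1.32 to 2.0), Rsad2 at 410 and 654 CPM, and Ifit1 at 109 and 305 CPM, 2.80-fold (1.92 to 4.05). Ifi27l2a was at 72.6 and 241 CPM. The ratios of Ifit2, Ifit3 and Ifit3b were 5.15-fold, 4.10-fold and 3.78-fold, from 12, 33 and 12 female UMIs. Of the female Ifit2 UMIs, 83.3% were in 1 cell. Oas2, Stat2 and Ifih1 had the higher level in the male library, each by less than 1.5-fold.

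The neutrophil result depended on which cells were taken as neutrophils. With classes taken from graph clusters, 6 genes were higher in the female and 3 in the male library by the same fold, beside 19.7% and 11.6% of 4991 genes. The ratio of summed levels was then 0.969 (male:female) in place of 0.657, and Rsad2 was 1.36-fold higher in the male library. Zbp1, at 75.3 and 133 CPM, was 1.38-fold higher in the male library under a stricter gate. Dissociation stress genes, a set of 10 immediate-early and heat-shock genes that enzyme digestion induces, summed to 7123 CPM in male and 11445 CPM in female neutrophils, and 5 of the 10 were higher by 1.5-fold or more in the female library. In carcinoma cells their sums were 7234 and 10144 CPM, and in macrophages 3395 and 3624 CPM. The 14 macrophage markers summed to 3771 and 4716 CPM in male and female neutrophils and to 72.9 and 166 CPM in carcinoma cells, where C1qa, C1qb and C1qc were at 2.53 and 2.43 CPM. The part of either list in the differences was not tested.

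In lymphocytes, T and NK cells together, the counts lay near the background on both sides. Of 27 genes with at least 20 UMIs, 3 were higher by 1.5-fold or more in the female and 2 in the male library, beside 9.05% and 9.36% of all 10087 genes. With at least 100 UMIs, 1 and 0 of 17 genes passed on the female and male side, beside 4.85% and 4.09% of all genes. The median of the 27 was 0.01 on the log2 scale, beside 0.02 for all genes. Without Ifitm3 the sums were 1321 CPM (1279 to 1364) in 842 male and 1309 CPM (1248 to 1373) in 381 female cells, with median depths of 2533.5 and 2598 UMIs. Usp18 was at 5.92 CPM in male and 23.2 CPM in female cells, 3.92-fold (2.09 to 7.57). Ifitm3 was at 191 and 424 CPM, 2.22-fold (1.97 to 2.50), and Oasl2 at 13.2 and 23.9 CPM, 1.81-fold (1.09 to 2.99). On the male side were Cmpk2, at 14.3 and 6.95 CPM, and Ifit2, at 16.7 and 8.50 CPM. Isg15 and Trim30a were above their female levels by 1.34-fold and 1.35-fold. The complement genes C1qa, C1qb and C1qc, which lymphocytes lack, summed to 429 CPM in male and 1074 CPM in female lymphocytes, and the 14 macrophage markers, all detected, to 1341 and 2930 CPM. Macrophages express Ifitm3, and the part of their RNA in its ratio was not tested. With cells thinned to 1000 UMIs the Ifitm3 ratio was 0.694 (male:female), within 1.5-fold.

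Across the 4 classes, 22 genes had a ratio in each, and 8 of these were higher in the female library in all 4. Of all 3756 genes with at least 20 UMIs in each class, 15.6% were. The direction of Ifit2, Ifit3b and Cmpk2 differed between classes past the fold. Whether the sex ratio differs between classes was not tested.

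The genes were unevenly spread over cells. Each cell of a class was thinned to a fixed number of UMIs, 2000 for carcinoma cells and macrophages, 600 for neutrophils and 1000 for lymphocytes, and shallower cells were left out. Ifitm3 was set aside, since its share would hide the other 30. Cells with at least 0.5% of their UMIs in the 30 genes made up 6.06% (5.37 to 6.82) of 4289 male and 11.0% (9.98 to 12.2) of 3263 female carcinoma cells. In macrophages they made up 7.35% (6.30 to 8.52) of 2217 male and 9.96% (8.87 to 11.1) of 2772 female cells. In neutrophils the shares were 22.2% (18.8 to 25.9) and 34.4% (26.1 to 43.4), and in lymphocytes 8.2% (6.40 to 10.3) and 9.5% (6.67 to 13). Without thinning the male and female shares were 5.15% and 9.30% in carcinoma cells, 6.33% and 8.43% in macrophages, 16.5% and 28.5% in neutrophils, and 6.18% and 5.51% in lymphocytes, where the order changed. At the other end, 15.5% of thinned male and 7.91% of thinned female carcinoma cells held no UMI of the 30 genes. The 5% of carcinoma cells with most UMIs of the 30 genes held 27.5% of those UMIs among male and 25.5% among female cells. In thinned macrophages this share was 35.1% and 29.5%.

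**Figure D3:**
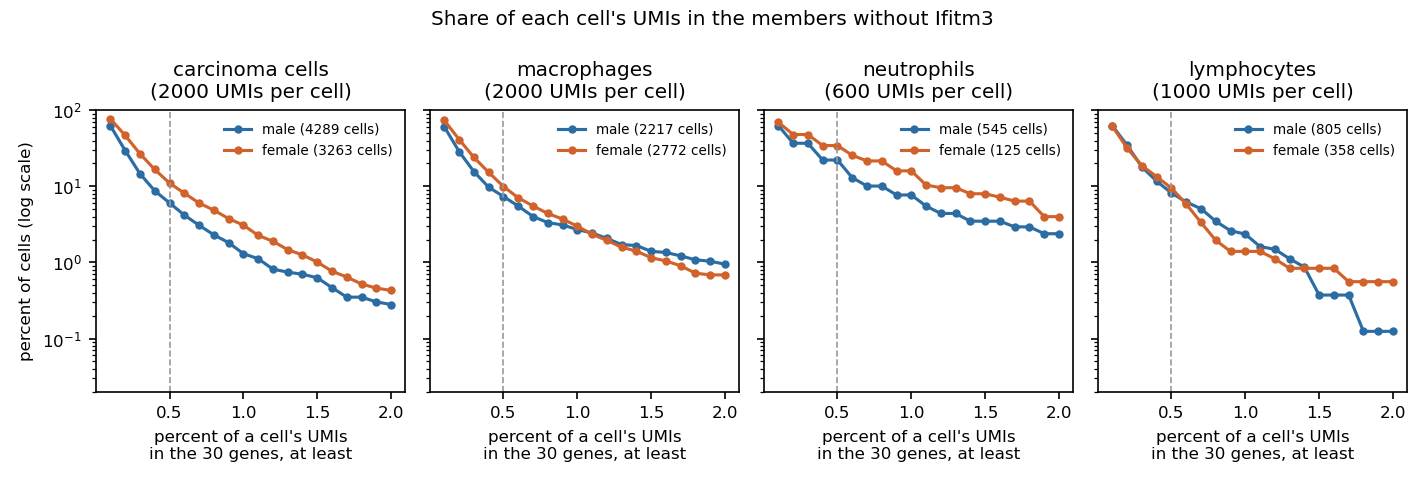
Percent of thinned cells (log scale) whose share of UMIs in the 30 genes without Ifitm3 was at least the value on the horizontal axis, for male (blue) and female (orange) cells of 4 classes. The dashed line marks 0.5%, where the female curve lies above the male in all 4 panels, by the least in lymphocytes.

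The curves crossed in macrophages and in lymphocytes. Among thinned macrophages, 1.40% of male and 1.15% of female cells held at least 1.5% of their UMIs in the 30 genes, while the median share was 0.10% in male and 0.15% in female cells. In carcinoma cells the median was 0.10% and 0.15% and the 99th percentile 1.10% and 1.47%, so the female library was higher at both points. In lymphocytes the median was 0.10% in both libraries, and 2.36% of male and 1.40% of female cells held at least 1% of their UMIs in the 30 genes, the other order from that at 0.5%.

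Cells high in some of the genes were high in the others. The 30 genes were divided into 2 groups of 15 by alternating in order of abundance, and the summed UMIs of the groups were correlated over thinned cells of 1 library. Pearson's r was 0.63 and 0.67 in male and female carcinoma cells, 0.69 and 0.65 in macrophages, 0.49 and 0.73 in neutrophils, and 0.47 and 0.58 in lymphocytes. Cells of a library share its depth and preparation, so these values describe the libraries and carry no p-value. In carcinoma cells, Ifit1, Ifit3, Cmpk2 and Rsad2 followed the other genes most closely, with r of 0.61, 0.60, 0.49 and 0.48 in the male and 0.63, 0.62, 0.53 and 0.51 in the female library. In male macrophages Rsad2, Ifit2, Ifit3 and Isg15 led, with r of 0.63, 0.62, 0.62 and 0.61. Ifitm3 had an r with the 30 genes between 0.12 in lymphocytes and 0.41 in female neutrophils.

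**Figure D4:**
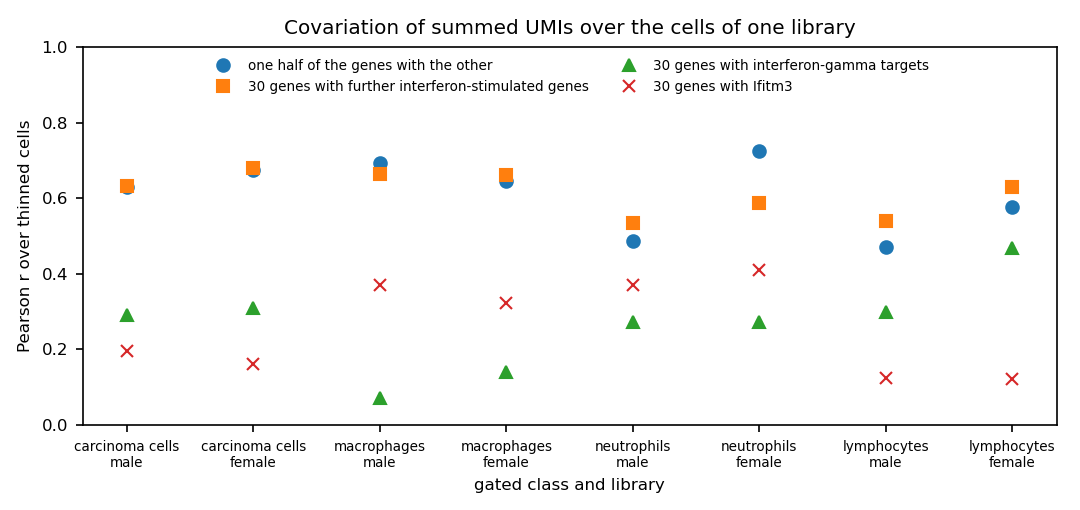
Pearson r over thinned cells of 1 library (vertical axis) between summed UMIs, in 4 classes and 2 host sexes (horizontal axis). Circles set one group of 15 genes against the other, squares the 30 genes against further interferon-stimulated genes, triangles against interferon-gamma targets, and crosses against Ifitm3. Circles and squares lie above triangles and crosses in each library.

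Genes outside the 31 moved along with them over cells. The summed UMIs of 58 further interferon-stimulated genes correlated with the 30 genes at r between 0.53 and 0.68. For 16 interferon-gamma targets r was between 0.07 in male macrophages and 0.47 in female lymphocytes. Of all genes found in at least 5% of thinned cells, the one closest to the 30 genes in carcinoma cells was Phf11d, with r of 0.42 in both libraries, followed in the male library by Apol9a (0.38) and in the female library by Rnf213 (0.34). In macrophages the closest was Ifi209, an interferon-inducible nuclear protein gene, with r of 0.48 and 0.49. In neutrophils it was Slfn4 in the male (0.47) and Tor1aip1 in the female library (0.50), and in lymphocytes Slfn1 (0.39) and Samhd1 (0.52).

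In carcinoma cells and macrophages the lists outside the 31 genes had medians nearer 0 or of the other sign. The male:female median on the log2 scale was -0.14 for further interferon-stimulated genes and -0.42 for interferon-gamma targets in carcinoma cells, and -0.14 and 0.38 in macrophages. The dissociation stress genes came close to the 31 genes in carcinoma cells, at -0.54 beside -0.59. In macrophages their median was -0.14, beside -0.28 for the 31 genes. Of 54 further interferon-stimulated genes with a ratio in carcinoma cells, 6 were higher by 1.5-fold or more in the female and 5 in the male library, beside the 6.81% and 7.05% of all genes given above. Apol9b was at 91.3 CPM in male and 146 CPM in female cells, whereas Ifitm2, the neighbour and relative of Ifitm3, was at 556 and 340 CPM. Ifitm1 was at 4.69 and 0.53 CPM, from 267 and 22 UMIs, 8.85-fold higher in the male library (5.72 to 14.4). In macrophages the counts were 4 and 2 of 56 genes with at least 20 UMIs. The shares there were 6.06% and 6.84% of genes with at least 100 UMIs. Of 16 interferon-gamma targets, 5 were higher in the female and 0 in the male library in carcinoma cells, among them Irgm1, a GTPase that guards membranes, at 68.4 and 112 CPM. In macrophages the side was the other one, with 0 higher in the female and 6 of 15 in the male library. Gbp7, a guanylate-binding protein, was there at 343 CPM in male and 206 CPM in female cells. These targets, too, needed only 20 UMIs for a ratio. Among genes with at least 100 UMIs, the female and male shares were 6.81% and 7.05% in carcinoma cells. In macrophages they were 6.06% and 6.84%, so counts and shares differ in depth in both classes.

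Few UMIs came from the ligands. Of 20 type I or III interferon genes listed, the matrices held 9. Ifnb1, the interferon beta gene, had 39 UMIs in 17 of all kept cells, 27 of these UMIs in macrophages. No other of the 9 genes had more than 15 UMIs. In carcinoma cells Ifnb1 had 0 UMIs, where 3 counts would be 0.0527 and 0.0723 CPM. It had 0 UMIs in neutrophils and lymphocytes too. There 3 counts would be 4.03 and 19.0 CPM in neutrophils and 1.04 and 2.32 CPM in lymphocytes. Macrophages had 0.606 and 0.363 CPM, so these zeros cannot show a level below that of macrophages. None of the 6 receptor genes listed differed by 1.5-fold in carcinoma cells, nor did any of the 5 with at least 20 UMIs in macrophages, where Ifnlr1 had 1 male and 3 female UMIs. Ifnar1 was at 40.3 and 50.5 CPM in carcinoma cells and at 155 and 115 CPM in macrophages. In neutrophils Ifnar1 was at 151 CPM in male and 69.8 CPM in female cells, from 112 and 11 UMIs, the opposite side from most of the 31 genes. Of 10 kinases and factors, Irf1 alone passed the fold in carcinoma cells, at 91.5 and 146 CPM, while Irf9 was at 62.9 and 93 CPM. Among inhibitors in macrophages, Socs1 was higher in the female and Tnfaip3 in the male library.

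Cells of the male and the female library fell largely into different graph clusters, which were made without the 31 genes, Xist and some Y-linked genes. Libraries were clustered together without correction for library effects, so host sex and library cannot be told apart in this split. Clusters 0 (Serpina3n, Orm1) and 4 (Il33, Rrm2) held 1344 and 1222 male but 160 and 160 female carcinoma cells. Clusters 5 (Fbxo32, Sprr1b) and 6 (Anln, Ankrd1) held 109 and 172 male and 1056 and 980 female cells. Male macrophages lay mostly in cluster 2 (Cx3cr1, Selenop), with 1389 male and 97 female cells. Female macrophages lay mostly in clusters 1 (Ccl24, Arg1) and 7 (Atp6v0d2, Mmp13), with 177 and 221 male and 1349 and 914 female cells. The 10 leading genes of clusters 1 and 7 held no macrophage marker. Those of cluster 1 held Cdh1 (a carcinoma marker), Chil3 (monocyte) and Flt1 (endothelial), and those of cluster 7 held Chil3. Values by cluster are therefore given beside those of the class. C1qa, C1qb and C1qc summed to between 6975 and 11672 CPM in both clusters. Clusters 11 (Cd209a, Ccl17), 13 (Trac, Cd3g) and 21 (Ly6c2, Plac8) had at least 2 markers of the same other class among their leading genes. Without these and smaller such clusters, 3 genes were higher by 1.5-fold or more in female and 1 in male macrophages, beside 10.4% and 9.71% of 14218 genes.

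Inside a cluster the comparison changed with the summary used. Clusters with at least 40 cells of the class in each library were compared, which left out carcinoma cluster 17 with 285 male and 7 female cells. For carcinoma cells the summed level of the 30 genes was higher in the female library in 6 of these 7 clusters, and the median cell in all 7. In cluster 0 the sums were 1603 CPM in male and 2771 CPM in female cells, and 21 of 31 genes were higher by 1.5-fold or more in the female library, beside 10.5% of 12260 genes. In cluster 5 the order was reversed, at 3399 and 2519 CPM, with 16 genes higher by 1.5-fold or more in the male library, beside 9.14% of 12212 genes, while the median cell was at 1481 and 1701 CPM. A single cell held 12.1% of the male UMIs of the 30 genes in cluster 5, and 8.42% in cluster 1. In macrophages the summed level was higher in the female library in 5 of 7 clusters and the median cell in 6. Among the 4 of these clusters without 2 leading markers of the same other class, the sum was higher in the female library in 2 and the median cell in 3. In clusters 1 and 7 it was higher in the male library, at 3328 and 1962 CPM and at 3835 and 2278 CPM. Isg15 was there at 314 and 165 CPM and at 290 and 137 CPM, and the median cell of cluster 1 was at 1383 and 1396 CPM.

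**Figure D5:**
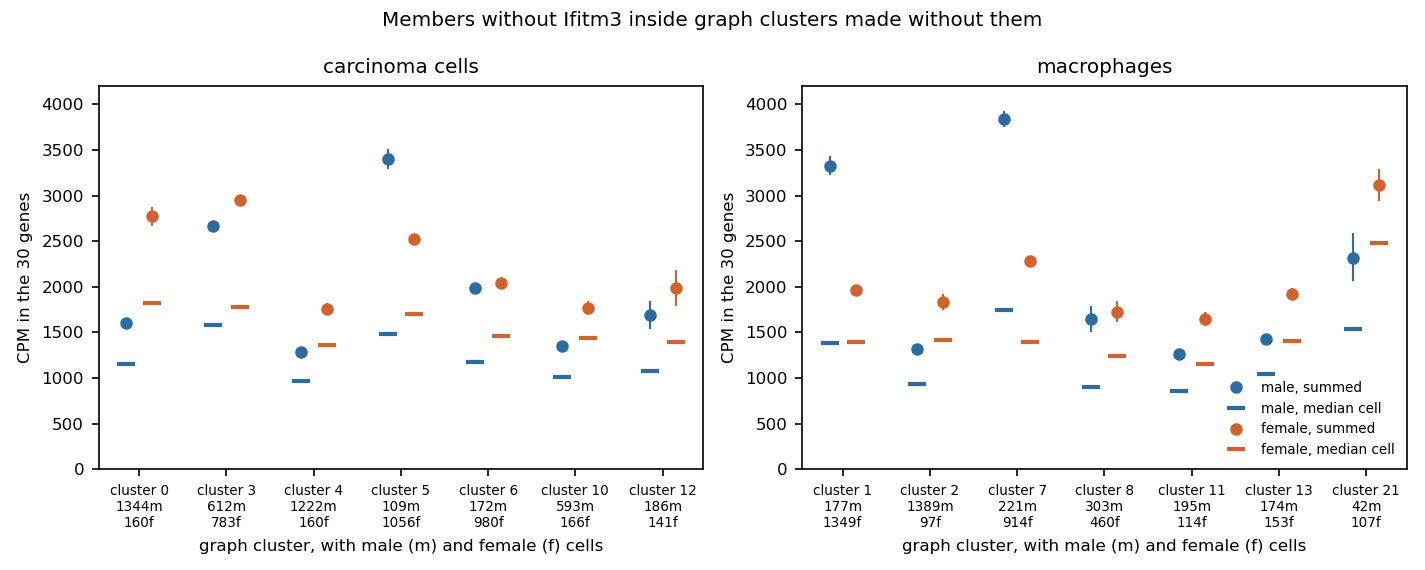
CPM in the 30 genes without Ifitm3 for male (blue) and female (orange) cells inside graph clusters of carcinoma cells and macrophages (horizontal axis, with cell numbers). Circles are summed levels with 95% Poisson intervals and bars the median over cells. Female bars lie above male bars in all 7 carcinoma clusters shown, while male circles are above female circles in clusters 1, 5 and 7.

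With the clusters weighted alike in place of their cells, Irf7 and Usp18 in macrophages were at ratios of 0.787 and 0.857 (male:female), within 1.5-fold. In carcinoma cells Irf7 was then at 0.927.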

How the data were processed

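Per the labels, single cells were captured with BD Rhapsody after enzyme digestion and a CD45 sort of live cells. The authors deposited UMI counts, whole numbers per gene and cell that are not normalised. CASAVA 1.8, UMI-tools, Seurat and mm10 are named per the submitters' processing notes, while an aligner is not given in the sources used.

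Kept cells had 500 or more UMIs, 250 or more genes and 25% mitochondrial UMIs or less. A cell joined a class where its marker score was at least 0.2, led by 0.1, and other lineages scored under 0.3. UMIs were summed per class and library and scaled to CPM, with exact Poisson intervals for levels, exact conditional intervals for ratios and Clopper-Pearson intervals for shares. A gene needed 20 UMIs for a ratio, and 1.5-fold was the size rule. Graph clusters (scanpy 1.11.5, leidenalg 0.10.2, resolution 1) were made without the 31 genes and without Xist, Tsix, Ddx3y, Uty, Kdm5d and Eif2s3y. Libraries were pooled for this with no correction for library effects. The doublet caller marked at most 1 cell per library and had not worked, so doublets remain. The code was tested on simulated counts. Members and lists were chosen with earlier results of these data known, and the gate, its markers and the set without Ifitm3 were set after the data were seen. Genes named are the 12 with most UMIs and the 3 with the largest ratio on each side in each class, and others were named after their values were seen. Alternatives covered the gate, clusters, cell weights, thinning, the fold, UMI minimums and left-out genes or cells. Some items are not reported here.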

Additional observations from a re-analysis of the deposited data

Results flagged for a closer look

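For 3 genes the libraries differed by at least 1.5-fold in opposite directions in different classes, and this difference between classes was not tested. The male:female ratio of Cmpk2 was 0.657 in carcinoma cells and 2.05 in lymphocytes. That of Ifit2 was 0.666 in carcinoma cells and 0.194 in neutrophils, but 1.97 in lymphocytes. That of Ifit3b was 0.556 in carcinoma cells and 0.265 in neutrophils, but 2.03 in macrophages. The lymphocyte values rest on 9 female UMIs of Cmpk2 and 11 of Ifit2, and reads of Ifit3b may be split with Ifit3.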

How the results depend on the processing

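No paired analysis was possible because each group has 1 library. In carcinoma cells the ratio of sums, male to female, was 1.00, and was 1.01 under a stricter gate, 0.985 with thinned cells, 1.01 without mitochondrial and ribosomal genes, 0.672 without the 3 most abundant genes, 0.691 without Ifitm3 and 1.07 with graph clusters weighted alike. The count of 16 genes higher in the female library was 2 at 2-fold and 1 with clusters weighted alike. The shares of high cells were 5.15% and 9.30% unthinned and 4.57% and 8.46% without the 3 most abundant genes. In macrophages the ratio of 0.805 became 0.814 with classes from graph clusters, 0.760 with cells weighted alike, 0.751 thinned, 0.824 without the 3 most abundant genes, 0.823 without Ifitm3, 0.832 without clusters led by other markers, and 1.02 with clusters weighted alike. The count of 5 higher in the female library became 3, 8, 1, 3 and 1 with graph-cluster classes, thinning, 2-fold, clusters led by other markers left out, and clusters weighted alike, the last with 5 higher in the male library. The macrophage shares of high cells were 5.32% and 7.18% without the 3 most abundant genes, and 8.43% in the female library unthinned. In neutrophils the count of 13 became 8 under a stricter gate, 6 with graph-cluster classes (3 in the male library), 8 thinned, 5 at 100 UMIs and 8 at 2-fold, and 1 gene was higher in the male library without each gene's top cell. The neutrophil ratio of 0.657 became 0.734, 0.969, 0.698 and 0.732 under the stricter gate, graph-cluster classes, cells weighted alike and without the top cell, and 16.5% of male cells were high unthinned. Directions reversed for neutrophil Zbp1, at 1.38 under the stricter gate and 1.06 thinned, and for Rsad2, at 1.36 with graph-cluster classes. In lymphocytes the counts of 3 and 2 in the female and male libraries became 7 in the female under the stricter gate, 4 in the male with graph-cluster classes, 1 and 0 at 100 UMIs, 1 in the male at 2-fold and 5 in the male with clusters weighted alike. The lymphocyte ratio of 0.872 became 0.809 under the stricter gate, 0.951 with cells weighted alike, 0.956 thinned, 0.993 with clusters weighted alike, 1.02 without the 3 most abundant genes and 1.01 without Ifitm3. High lymphocytes were 6.18% and 5.51% unthinned and 5.22% and 3.91% without the 3 most abundant genes, so their order between libraries changed. The causes were not tested. Shares of all genes are not given for the stricter gate, thinning, 2-fold or left-out top cells. They are also not given for graph-cluster classes of macrophages and lymphocytes, or for lymphocyte clusters weighted alike. Counts in those settings cannot be set against a background. For single named genes, 511 values under all alternatives together kept direction and side of the fold, 44 moved, 28 lost and 15 gained the fold, and 3 reversed. This total hides differences between settings. With graph clusters weighted alike, 1 carcinoma, 1 macrophage and 9 lymphocyte values stayed the same. In that setting and order, 7, 10 and 2 values moved, 6, 4 and 1 lost the fold, and 0, 1 and 3 gained it. The settings without Ifitm3, without clusters led by other markers and with clusters weighted alike were added after seeing the data, and the last could not be run for neutrophils, which had 1 cluster. Depth left 24 of 31 genes in neutrophils and 27 in lymphocytes with the 20 UMIs needed for a ratio.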
